A study of Mus musculus with 28 samples.

Results

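The glucocorticoid receptor gene Nr3c1 and 8 of its known target genes, Tsc22d3, Fkbp5, Errfi1, Sgk1, Zbtb16, Klf9, Ddit4 and Anxa1, were followed across 28 expression arrays of mouse spleen RNA. These 9 genes of the 18193 measured were chosen by name, and each is represented by the probe set that names it alone and has the highest mean. The study fed mice abscisic acid (ABA), a plant hormone, and challenged them with lipopolysaccharide (LPS), a component of bacterial outer membranes. A wild-type-only experiment held 4 arrays with LPS on the ABA diet, 2 without LPS on the ABA diet, 4 with LPS on the control diet and 2 without LPS on the control diet. A mixed-genotype experiment held PPARg-null and wild-type mice, each on the ABA and the control diet, with and without LPS, with 2 arrays in each of 8 groups. All of these mice carried floxed PPARg alleles. The null mice also carried a Cre recombinase under the MMTV promoter, and the wild-type mice lacked it, so deletion is limited to cells in which that promoter acts. The labels give 40 mice of each genotype but not which or how many mice lie behind an array, so p measures the spread between samples, which may be technical. The LPS dose, its timing and the age of the mice are not given in the sources used here.

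Glucocorticoids are steroid hormones that the adrenal cortex releases under stress and during inflammation. They bind the receptor in the cytoplasm, where a chaperone complex holds it, and the bound receptor moves to the nucleus and acts at glucocorticoid response elements. Bacterial LPS raises adrenal glucocorticoid output, and many induced genes restrain inflammation or alter cell metabolism. Tsc22d3 encodes GILZ, a mediator of glucocorticoid action in immune cells. Fkbp5 encodes a co-chaperone that lowers the receptor's hormone affinity. Errfi1 encodes an inhibitor of epidermal growth factor receptor signalling, and Ddit4 encodes REDD1, an inhibitor of mTORC1. Sgk1 is a serine/threonine kinase, Zbtb16 (PLZF) and Klf9 are transcription factors, and Anxa1 encodes annexin A1, an anti-inflammatory protein that signals through formyl peptide receptors.

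The 250 bases before each RefSeq transcription start of the members were searched for the half-site AGAACA on both strands (TGTTCT as printed) and for the full palindromic element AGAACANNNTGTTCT. RefSeq promoters on GRCm38.p6 were searched for 7 of the 9 members, all but Nr3c1 and Zbtb16, with 15 starts. A half-site lay in 4 of these 15 windows, all of them at starts of Sgk1 or Tsc22d3, against 16.1% of 32851 promoters of the same length. By gene, with any start, it lay in 2 of 7 members, against 18.2% of 27025 genes. The full element lay in 1 window, at an Sgk1 start, and in 3 of all 32851 promoters (0.00913%). The Sgk1 window is shown because it holds the full element, the Tsc22d3 window because it holds that gene's half-site, and the Fkbp5 window, that gene's only listed start, because Fkbp5 was among the genes that rose with LPS while no half-site lay there. Capitals mark the half-sites. The full element in the Sgk1 window is formed by the half-sites that begin 189 and 180 bases before the start.
Sgk1 (chr10:21993640-21993889, plus strand): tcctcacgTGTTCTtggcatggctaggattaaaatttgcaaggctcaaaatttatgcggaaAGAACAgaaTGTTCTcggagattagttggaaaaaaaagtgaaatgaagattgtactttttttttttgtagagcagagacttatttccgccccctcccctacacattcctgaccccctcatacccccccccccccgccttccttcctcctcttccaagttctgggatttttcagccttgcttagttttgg
Tsc22d3 (chrX:140600523-140600772, minus strand, printed in the direction of the gene): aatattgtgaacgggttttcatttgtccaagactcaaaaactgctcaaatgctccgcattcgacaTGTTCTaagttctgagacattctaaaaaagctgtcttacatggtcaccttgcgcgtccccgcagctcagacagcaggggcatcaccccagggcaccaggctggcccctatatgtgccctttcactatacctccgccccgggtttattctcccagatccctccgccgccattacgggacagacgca
Fkbp5 (chr17:28486150-28486399, minus strand, printed in the direction of the gene): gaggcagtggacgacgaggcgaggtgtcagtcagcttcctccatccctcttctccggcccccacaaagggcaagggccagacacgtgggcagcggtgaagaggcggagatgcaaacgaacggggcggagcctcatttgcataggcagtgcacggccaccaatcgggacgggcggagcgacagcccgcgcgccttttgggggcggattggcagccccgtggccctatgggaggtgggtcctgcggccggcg
These matches describe letters in short windows, and binding of the receptor was not measured.

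The values are log2 expression values from the authors, and the 2 experiments have different lowest values (2.29 in the wild-type-only and 2.24 in the mixed-genotype experiment), so levels are compared only within an experiment. Zbtb16 lay within 0.5 log2 units of the lowest value on 3 of the 12 wild-type-only arrays, and the other 8 members did so on none of the 28 arrays. Cpa1, a pancreatic enzyme, exceeded the lowest value by more than 2 log2 units on 4 arrays, which were control diet LPS replicate 2 and control diet no-LPS replicate 1 of the wild-type-only experiment, and replicate 2 of both null groups without LPS. Xist, transcribed from the inactive X chromosome, was high on all 12 wild-type-only arrays and on 6 of the 16 others, where both wild-type control diet arrays with LPS had it and both without LPS lacked it. Sex therefore cannot be told apart from LPS between those 4 arrays. The macrophage marker Csf1r and the B cell marker Ms4a1 lay at 9.87 or higher on every array, while the macrophage marker Vsig4 stayed at or near the lowest value on all 28. Markers within a list thus differed. The macrophage markers Adgre1 and Cd68 ranged over 3.46 to 6.17 and 4.74 to 6.39 in the wild-type-only experiment. In the mixed-genotype experiment the B cell marker Pax5 ranged over 2.26 to 2.38, near the lowest value. Pparg, the targeted gene, had a median of 2.45 on the 8 null and 2.45 on the 8 wild-type arrays of the mixed-genotype experiment, near the lowest value in both, so its probe set does not check the genotype labels. In bulk tissue, fewer cells of a type and less RNA per cell cannot be told apart.

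**Figure D1:**
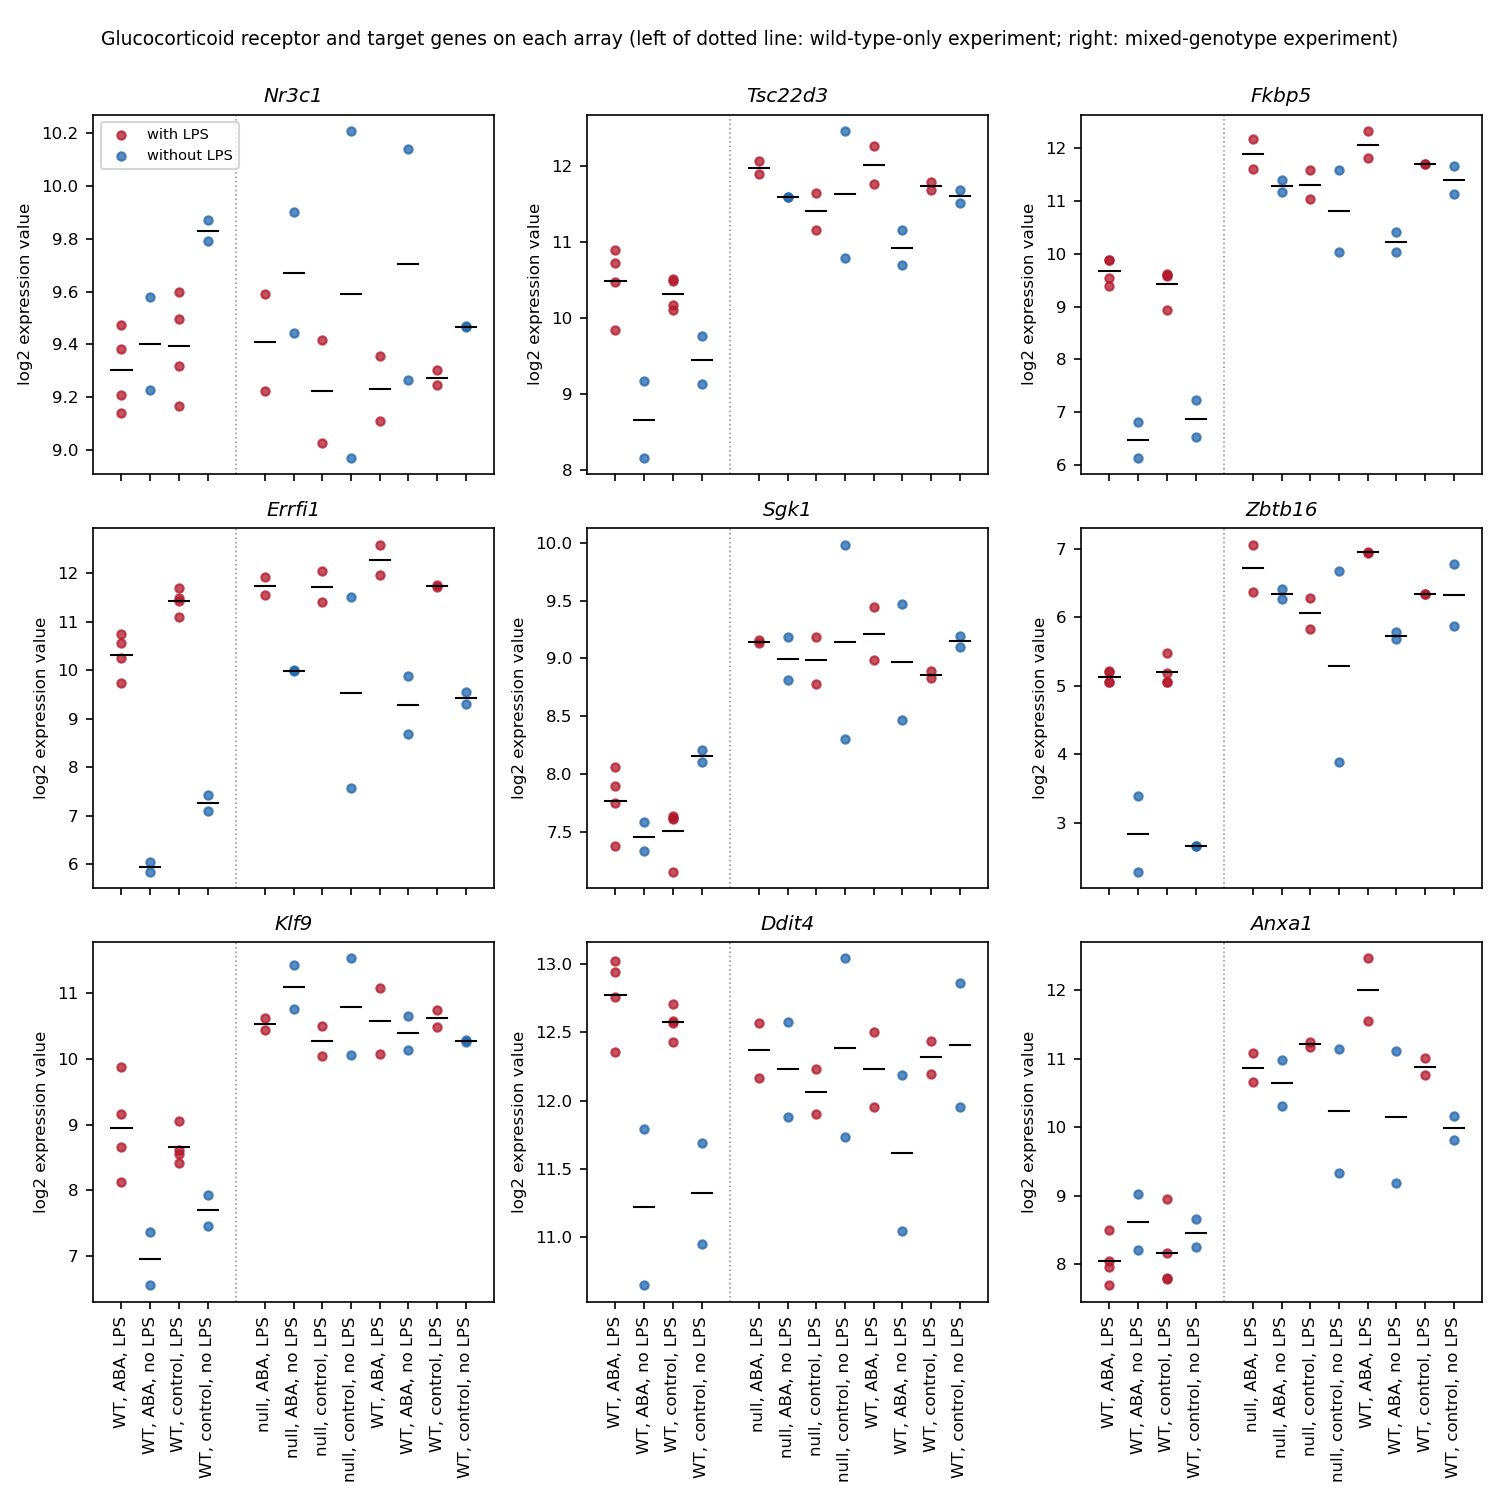
Log2 expression value of each of the 9 genes on every array (points) with the group mean (bar), by genotype, diet and LPS, with red for LPS and blue for no LPS. Left of the dotted line, Errfi1 and Fkbp5 with LPS lie above every array without LPS, and on the right the pair of null control diet arrays without LPS lies far apart.

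Receptor mRNA itself did not pass the test in any comparison, although its control diet difference with LPS passed under other settings. Nr3c1 lay at 9.38, 9.21, 9.14 and 9.47 with LPS and at 9.23 and 9.58 without it on the ABA diet of the wild-type-only experiment. Control diet values were 9.50, 9.32, 9.60 and 9.17 with LPS, and 9.79 and 9.87 without. The control diet groups did not overlap, the ABA diet groups did. Across the 20 wild-type arrays the LPS change was -0.29 ± 0.15 on the ABA diet and -0.30 ± 0.15 log2 units (SE) on the control diet, with limma adjusted p of 0.235 and 0.193. With quantile normalisation the control diet change passed at -0.47 and with array weights at -0.37 (limma adjusted p = 0.0408 and 0.0390). In null mice the change was -0.32 ± 0.28, and the null minus wild-type differences were 0.06 ± 0.28 with LPS and 0.05 ± 0.28 without. Of the 6 probe sets of Nr3c1, another high one had LPS differences of -0.48 on the ABA and -0.72 on the control diet in the wild-type-only experiment, while one more had 0.03 and 0.09, so the probe sets of the receptor differ among themselves.

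LPS raised several receptor targets in wild-type spleen. Errfi1 rose by 3.66 ± 0.44 log2 units on the ABA diet and by 3.48 ± 0.44 on the control diet (limma, SE, adjusted p = 3.16e-05 and 4.64e-05). Fkbp5 rose by 2.65 ± 0.38 on the ABA and by 1.57 ± 0.38 on the control diet, and Zbtb16 rose by 1.82 ± 0.38 and 1.45 ± 0.38. Tsc22d3, Klf9 and Ddit4 passed the test on the ABA diet, while Nr3c1, Sgk1 and Anxa1 passed on neither. In all, 6 of the 9 members rose and 0 fell with LPS on the ABA diet, where 8.93% of all 13458 genes tested rose and 6.33% fell. With the control diet 3 rose and 0 fell with LPS, where 10.6% of genes rose and 7.5% fell. Within the wild-type-only experiment 6 members passed on the ABA and 4 on the control diet, beside 1931 and 1686 of all 12059 genes tested. Within the 8 wild-type arrays of the mixed-genotype experiment 0 passed on either, beside 144 and 404 of 12751 genes. With so few calls over all genes, 0 of 9 does not show that the members were unchanged there. The median change of the 9 members was 1.20 on the ABA diet and 0.64 on the control diet, beside medians of 0.00 over all genes on both. With array weights 8 members passed on the control diet, of which 6 rose and Nr3c1 and Sgk1 fell, beside 3529 of 13458 genes in either direction. The genes were chosen with earlier results of these arrays known, so these counts are a description. With LPS erythroid markers fell as well, 5 of 6 on the ABA diet with a median change of -4.67 and 4 of 6 on the control diet with a median of -4.54, and their part in the members' values was not tested.

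Errfi1 lay at 10.25, 9.73, 10.57 and 10.75 with LPS on the ABA diet of the wild-type-only experiment, against 6.04 and 5.85 without LPS. Its control diet values were 11.49, 11.43, 11.69 and 11.10 with LPS, against 7.11 and 7.43 without. The groups were far apart on both diets. In wild-type mice of the mixed-genotype experiment it lay at 12.59 and 11.96 with LPS and at 8.70 and 9.88 without on the ABA diet, and at 11.75 and 11.72 with LPS and at 9.55 and 9.32 without on the control diet. No wild-type array with LPS overlapped one without in either experiment. In null mice it lay at 11.93, 11.55, 11.40 and 12.05 with LPS, against 10.01, 9.98, 11.50 and 7.57 without, and there the groups overlapped through 1 array without LPS. Leaving out any 1 array kept the call on both diets, with changes of 3.34 to 4.11 on the ABA and 3.34 to 3.75 on the control diet.

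Fkbp5 lay at 9.88, 9.39, 9.53 and 9.88 with LPS on the ABA diet of the wild-type-only experiment, against 6.13 and 6.80 without. With the control diet it lay at 9.60, 9.58, 9.61 and 8.93 with LPS, against 6.52 and 7.22 without. These groups did not overlap. In wild-type mice of the mixed-genotype experiment the ABA diet values were 12.33 and 11.81 with LPS and 10.41 and 10.02 without, and the control diet values were 11.70 and 11.70 with LPS and 11.13 and 11.66 without. There the control diet arrays lay close together, with a difference of 0.30 ± 0.27 against 1.85 ± 0.27 on the ABA diet in a fit of that experiment's 8 wild-type arrays, where neither passed. Another probe set of Fkbp5, well above the lowest value on those arrays, had LPS differences of 1.85 on the ABA and 1.78 on the control diet there, so the small control diet difference is that of the chosen probe set. Without the arrays with high Cpa1 the control diet change in Fkbp5 was 1.10 ± 0.38 (limma adjusted p = 0.0712) and that in Zbtb16 1.15 ± 0.43 (limma adjusted p = 0.0965), so both lost their calls, and Errfi1 alone kept its own.

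Zbtb16 lay at 5.06, 5.20, 5.06 and 5.22 with LPS on the ABA diet of the wild-type-only experiment, against 3.39 and 2.29 without. Its control diet values were 5.49, 5.06, 5.18 and 5.06 with LPS, against 2.67 and 2.67 without. The arrays without LPS lay at or near the lowest value there, apart from ABA diet replicate 1, so the size of the change depends on that value. In wild-type mice of the mixed-genotype experiment it lay at 6.94 and 6.96 with LPS against 5.68 and 5.79 without on the ABA diet, and at 6.34 and 6.34 with LPS against 5.88 and 6.78 without on the control diet. The ABA diet groups did not overlap there, and the control diet groups did. Fitted alone, the control diet change was 2.53 ± 0.25 in the wild-type-only and 0.01 ± 0.30 in the mixed-genotype experiment. The pooled value of 1.45 lies between these. The probe set is of a kind that can hybridise with other transcripts, and its value of 5.06 recurs on 4 arrays. Of the other 2 probe sets of Zbtb16, one lay near the lowest value on 9 of 12 wild-type-only arrays. It differed with LPS by 2.08 on the ABA and 1.99 on the control diet in the mixed-genotype experiment. The remaining probe set differed with LPS by 0.13 or less on either diet of both experiments. When no-LPS replicate 1 or replicate 2 of the wild-type-only control diet was left out, the control diet change was 1.18 ± 0.41 either way and lost its call (limma adjusted p = 0.0649 and 0.0653).

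Tsc22d3 lay at 10.72, 9.84, 10.47 and 10.89 with LPS on the ABA diet of the wild-type-only experiment, against 8.16 and 9.17 without. On the control diet it lay at 10.51, 10.17, 10.48 and 10.11 with LPS, against 9.13 and 9.76 without. The groups did not overlap on either diet. Over the 20 wild-type arrays it rose by 1.49 ± 0.25 on the ABA diet (limma adjusted p = 0.000775), and the control diet change of 0.57 ± 0.25 did not pass (limma adjusted p = 0.131). In wild-type mice of the mixed-genotype experiment Tsc22d3 ranged over 11.68 to 12.26 with LPS, against 10.69 to 11.68 without, so that the ranges met at 11.68. Klf9 and Ddit4 rose by 1.20 ± 0.37 and 1.19 ± 0.34 on the ABA diet (limma adjusted p = 0.0386 and 0.0263), beside control diet changes of 0.72 ± 0.37 and 0.64 ± 0.34 that did not pass. These values average over the 2 experiments. Fitted alone, the ABA diet change of Klf9 was 1.99 ± 0.45 in the wild-type-only and 0.18 ± 0.38 in the mixed-genotype experiment. That of Ddit4 was 1.55 ± 0.32 and 0.61 ± 0.52. In the wild-type-only experiment Klf9 ranged over 8.13 to 9.87 with LPS, median 8.64, against 6.56 to 7.93 without, median 7.42, and the groups did not overlap. Other Klf9 probe sets above the lowest value differed there with LPS by 2.25 and 1.25 on the ABA diet. On the control diet they differed by 2.02 and 1.04. The diets thus lay closer together on them than on the chosen probe set, at 1.99 and 0.97. Ddit4 ranged there over 12.35 to 13.02 with LPS, median 12.64, against 10.65 to 11.79 without, median 11.32, again with no overlap. In wild-type mice of the mixed-genotype experiment both genes overlapped. Klf9 ranged over 10.08 to 11.07 with LPS, against 10.14 to 10.65 without, and Ddit4 over 11.95 to 12.51, against 11.04 to 12.86. Klf9 lost its ABA diet call without any 1 of 7 of the 10 arrays, which were wild-type-only LPS replicates 2, 3 and 4 and no-LPS replicates 1 and 2, and replicate 1 of the mixed-genotype wild-type groups with and without LPS, with changes of 0.83 to 1.30 and limma adjusted p of 0.0501 to 0.144. It kept the call in 6 of 13 other settings. Ddit4 lost it without wild-type-only LPS replicate 4, no-LPS replicate 1 or mixed-genotype no-LPS replicate 1, with changes of 0.91 to 1.10 and limma adjusted p of 0.0515 to 0.117.

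Sgk1, whose window holds the full response element, did not pass with LPS on either diet. It lay at 7.89, 7.38, 7.75 and 8.06 with LPS on the ABA diet of the wild-type-only experiment, against 7.33 and 7.58 without. Its control diet values were 7.61, 7.64, 7.62 and 7.16 with LPS, against 8.21 and 8.10 without. The groups overlapped on the ABA diet, and on the control diet every array with LPS lay below those without. The fitted changes were 0.26 ± 0.18 on the ABA diet and -0.47 ± 0.18 on the control diet (limma adjusted p = 0.367 and 0.0857). The control diet value passed with quantile normalisation at -0.60 and with array weights at -0.60 (limma adjusted p = 0.0291 and 0.00487). Anxa1 changed by 0.41 ± 0.48 and 0.28 ± 0.48 (limma adjusted p = 0.624 and 0.784), an average over experiments whose differences had opposite signs.

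**Figure D2:**
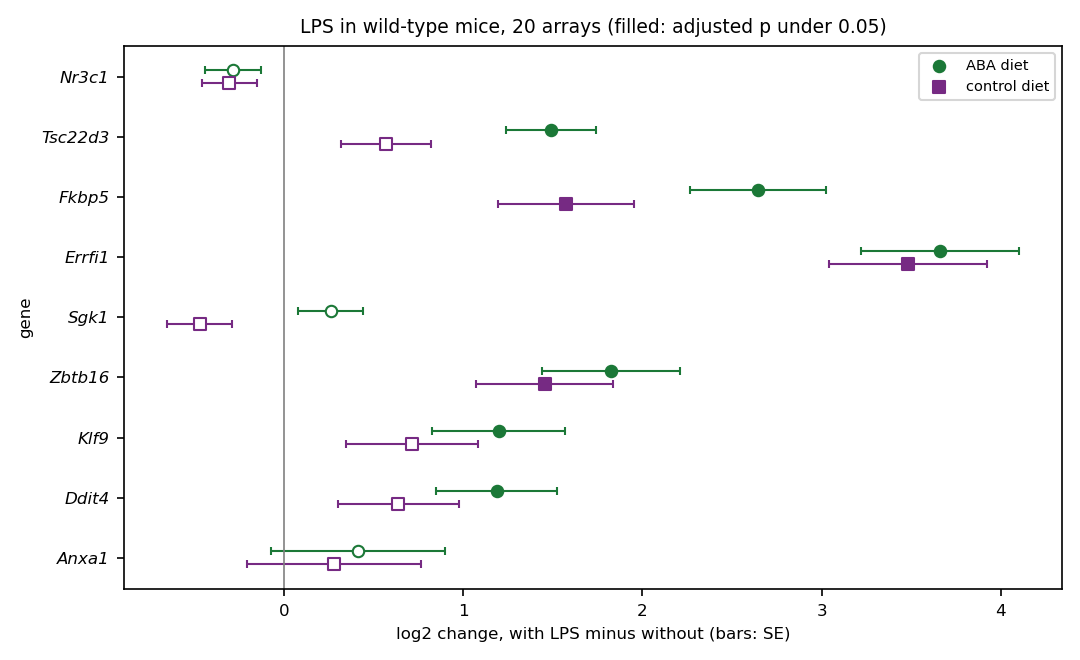
Log2 change with LPS over no LPS in wild-type mice for each gene, on the ABA diet (circles) and the control diet (squares), with SE bars from limma; filled points passed at adjusted p under 0.05. On the plot 6 genes are filled on the ABA diet and 3 on the control diet, with Errfi1 highest on both.

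The ABA diet on its own changed no member at the threshold. With LPS, 0 of 9 members passed (limma), against 0.0149% of genes. An unadjusted p under 0.05 was reached there by 0 of 9 members and by 684 of 13458 genes. For Errfi1 the pooled value of -0.55 ± 0.39 averaged opposite signs. With LPS the ABA diet difference was -1.10 ± 0.22 within the wild-type-only experiment, where no ABA array overlapped a control diet one, and 0.54 ± 0.44 among wild-type mice of the other (limma adjusted p = 0.166 and 0.945). Its values without LPS were -1.32 ± 0.31 within the wild-type-only experiment, again with no overlap, and -0.15 ± 0.44 in the other (limma adjusted p = 0.141 and 1). Without LPS, 0 of 9 passed, against 0.00743% of genes. There 8 of 9 differences were negative, or 6 to 9 with any 1 array left out, with a median of -0.44 beside 0.00 over all genes. Those of Nr3c1, Zbtb16 and Klf9 had opposite signs within the 2 experiments. Of the 9 members, 2 had an unadjusted p under 0.05, beside 788 of 13458 genes. These were Tsc22d3 at -0.73 ± 0.27 and Sgk1 at -0.44 ± 0.20, with limma adjusted p of 0.814 and 0.843. The diet by LPS interaction asks whether the LPS change differs between diets, and 0 of 9 members and 0% of genes passed. All 9 pooled interaction estimates were positive, or 7 to 9 with any 1 array left out, with a median of 0.48 beside 0.00 over all genes. Within the wild-type-only and the mixed-genotype experiment, signs were opposite for Nr3c1 (0.33 and -0.28) and Klf9 (1.02 and -0.16). They were also opposite for Zbtb16 (-0.24 and 1.20) and Anxa1 (-0.29 and 0.97), and the other members were positive in both. The pooled estimates of Fkbp5, Tsc22d3 and Sgk1 were 1.07 ± 0.53, 0.92 ± 0.35 and 0.73 ± 0.26. Tsc22d3 and Sgk1 had unadjusted p under 0.05, beside 561 of 13458 genes, and limma adjusted p of 0.956. These 3 contrasts share arrays with each other and with the LPS contrasts, so the calls on the ABA diet alone do not show that the diets differed.

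**Figure D3:**
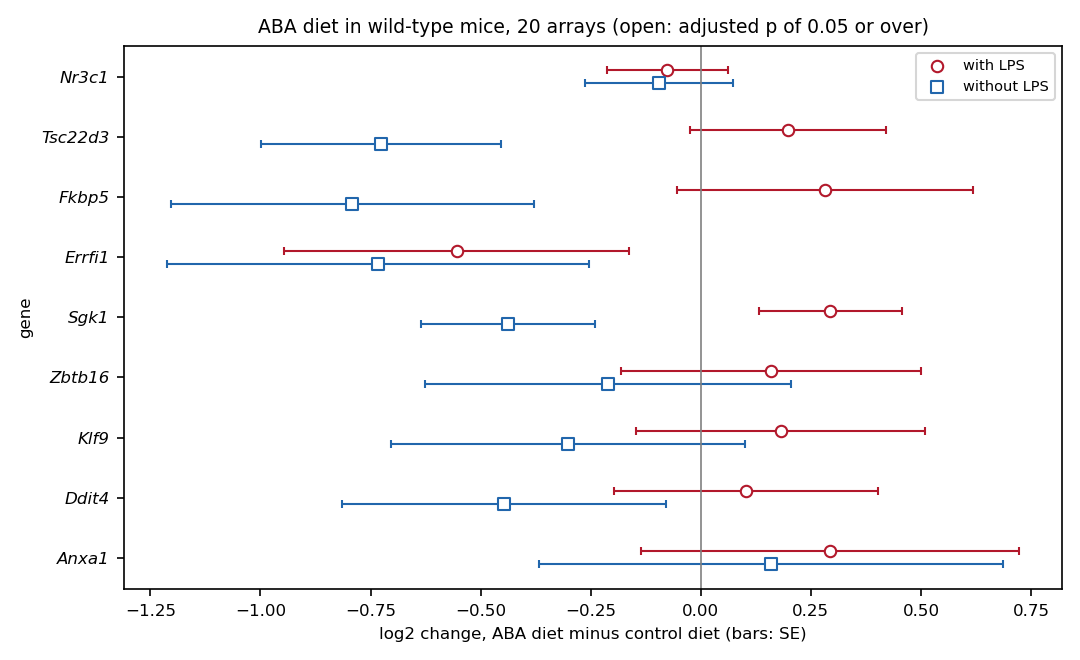
Log2 change with the ABA diet over the control diet in wild-type mice for each gene, with LPS (circles) and without LPS (squares), with SE bars from limma. All points are open, since none passed at adjusted p under 0.05; without LPS 8 of 9 points lie below 0.

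On the chosen probe sets, the LPS changes of 3 targets were larger in the wild-type-only experiment. In a fit with 8 wild-type conditions, chosen after the data were seen, Errfi1 changed by 4.27 ± 0.23 in the wild-type-only and by 2.65 ± 0.26 in the mixed-genotype experiment, Fkbp5 by 2.88 ± 0.20 and 1.08 ± 0.23, and Zbtb16 by 2.41 ± 0.19 and 0.61 ± 0.21, diets averaged. The differences between experiments were 1.62 ± 0.35, 1.80 ± 0.30 and 1.80 ± 0.28 (limma adjusted p = 0.0174, 0.00419 and 0.00255). Thus 3 of 9 members had a larger and 0 a smaller LPS change in the wild-type-only experiment, beside 2.08% and 2.84% of all genes. Klf9 changed by 1.48 ± 0.30 in the wild-type-only and by 0.26 ± 0.34 in the mixed-genotype experiment, Ddit4 by 1.40 ± 0.27 and 0.26 ± 0.31, and Tsc22d3 by 1.35 ± 0.23 and 0.61 ± 0.26. The differences of Klf9, Ddit4 and Tsc22d3 were 1.21 ± 0.45, 1.14 ± 0.41 and 0.73 ± 0.34 and did not pass (limma adjusted p = 0.165, 0.152 and 0.290). Other probe sets of Errfi1, Fkbp5 and Zbtb16 did not show the larger change. In the mixed-genotype experiment, one of Fkbp5 differed with LPS by 1.85 on the ABA and 1.78 on the control diet, and one of Zbtb16 by 2.08 and 1.99, while in the wild-type-only experiment these lay near the lowest value on 11 and 9 of 12 arrays. A second probe set of Errfi1 differed by 0.97 on the ABA and 1.95 on the control diet in the wild-type-only experiment, where 4 of 12 arrays were near the lowest value, and by 1.98 and 2.00 in the mixed-genotype one. The chosen Zbtb16 probe set was itself near the lowest value on 3 of the 4 wild-type-only arrays without LPS. The experiments also differed in their lowest values and in Xist, so what separates them cannot be told apart here.

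The LPS change of Anxa1, annexin A1, had opposite signs in the experiments. In wild-type mice of the mixed-genotype experiment it lay at 12.46, 11.55, 11.01 and 10.76 with LPS, against 9.18, 11.12, 9.82 and 10.17 without. In the wild-type-only experiment it ranged over 7.70 to 8.95 with LPS, median 8.01, against 8.22 to 9.02 without, median 8.46. The groups overlapped in both, and the LPS changes were -0.42 ± 0.34 in the wild-type-only and 1.37 ± 0.40 in the mixed-genotype experiment. Their difference of -1.80 ± 0.53 did not pass (limma adjusted p = 0.0751). The neutrophil markers had a like pattern, since their mean log2 value over 11 markers ranged over 8.13 to 9.29 with LPS, against 6.76 to 7.81 without, in the wild-type mice of the mixed-genotype experiment, and over 5.83 to 7.14 with LPS, against 6.74 to 7.92 without, in the wild-type-only experiment. The LPS change of 7 of these 11 was smaller in the wild-type-only experiment, with a median difference of -2.41. Csf3r, a neutrophil receptor gene, stayed within 0.5 log2 units of the lowest value on all wild-type-only arrays, and Elane was low in both experiments. The part of neutrophils in the Anxa1 values was not tested.

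In the mixed-genotype experiment, with the diets averaged and all 16 arrays in the fit, 1 of 9 members rose with LPS in wild-type mice and 0 fell, beside 8.55% and 5.49% of genes. This was Errfi1, at 2.65 ± 0.71 (limma adjusted p = 0.0384). It lost the call without any 1 of 7 of the 8 wild-type arrays, all but ABA diet no-LPS replicate 2, with changes of 2.35 to 2.80. Without that replicate, the change of Anxa1 was 1.86. Each of these fits leaves 1 array in a group, so only the changes are given. The 16-array fit shares its estimate of spread with the null mice, whose control diet pair without LPS differed by 3.93 in Errfi1. These lost calls therefore depend on more than the wild-type arrays. In the fit with 8 wild-type conditions, which holds no null array, the same Errfi1 change was 2.65 ± 0.26. In null mice 0 of 9 passed (limma), beside 3.95% of genes that rose and 3.45% that fell. An unadjusted p under 0.05 was reached by 1 of 9 members and by 2970 of 13377 genes. Errfi1 again had the largest change, 1.97 ± 0.71, and Fkbp5 changed by 0.55 ± 0.33 (limma adjusted p = 0.137 and 0.371). Klf9 changed by -0.54 ± 0.34 in null mice, against 0.26 ± 0.34 in wild-type mice.

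No genotype difference passed. The LPS by genotype interaction held 0 of 9 members and 0.0299% of genes, with 7 of 9 estimates negative and a median of -0.53 beside -0.07 over all genes. Without control diet no-LPS replicate 1 of the null mice 5 of 9 were negative, with a median of -0.03. The largest was that of Klf9, -0.80 ± 0.48 (limma adjusted p = 0.943). Erythroid markers moved with this contrast, since the median LPS change of 6 was -1.87 in null mice, with 0 called, against -6.17 in wild-type mice, with 6 called, and their median interaction was 4.12. Their median null minus wild-type difference with LPS was 3.14, with 0 of 6 called for either contrast, and their part in the members' values was not tested. Without LPS the null control diet pair had erythroid marker means of 7.64 in replicate 1 and 12.93 in replicate 2. The null LPS change and the interaction of these markers therefore rest in part on that pair. With LPS, null against wild-type mice gave 0 of 9 members and 0.0299% of genes. Without LPS it gave 0 of 9 members and 0.00748% of genes, with 8 of 9 estimates positive and a median of 0.30 beside 0.02 over all genes. Without replicate 1 of that null control diet pair 1 of 9 was positive, Klf9 at 0.24, and the median was -0.15. Leaving out wild-type replicate 1 on the ABA diet with no LPS gave 5 of 9. The ABA diet in null mice gave 0 of 9 members with LPS, beside 0.0972% of genes, and 0 of 9 without LPS, beside 0.179% of genes. In these 5 comparisons 0 members had an unadjusted p under 0.05, beside 283 to 1061 of 13377 genes. In simulated data for genotype with LPS the fit called 33% of genes changed by 1 log2 unit and 80% of those changed by 2, and for the ABA diet in null mice without LPS only 8% and 43%, so differences of these sizes may have been missed.

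**Figure D4:**
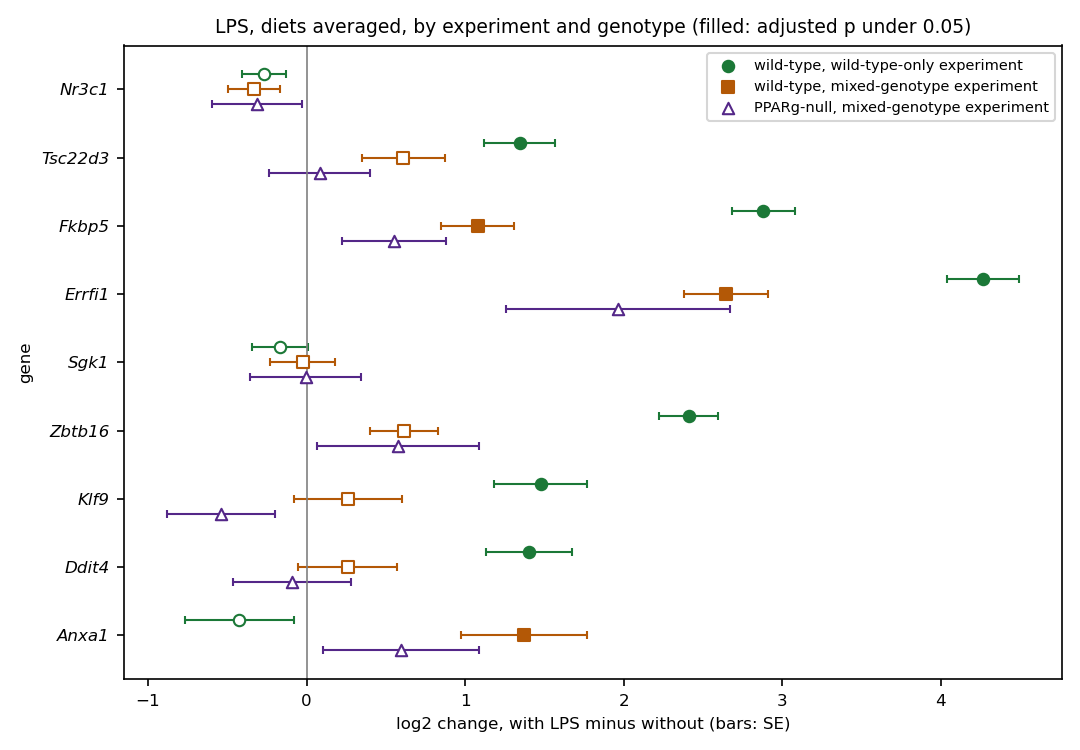
Log2 change with LPS over no LPS, diets averaged, for each gene in wild-type mice of the wild-type-only experiment (circles), wild-type mice of the mixed-genotype experiment (squares) and null mice (triangles), with SE bars from limma; filled points passed at adjusted p under 0.05. The wild-type values come from the fit with 8 wild-type conditions, in which Fkbp5 and Anxa1 passed in the mixed-genotype experiment beside Errfi1, and those of null mice from the fit of 16 arrays. Circles lie right of the other symbols for Tsc22d3, Fkbp5, Errfi1, Zbtb16, Klf9 and Ddit4, and left of them for Anxa1.

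The pair of null control diet arrays without LPS stood apart. For Errfi1 replicate 1 lay at 11.50 and replicate 2 at 7.57, against 10.01 and 9.98 in the null ABA diet pair without LPS. For Zbtb16 they lay at 6.68 and 3.89, and for Tsc22d3 at 12.46 and 10.79. Replicate 1 exceeded replicate 2 for all 9 members, by 1.24 to 3.93 log2 units, and 5 of the 9 had their highest value of the 16 arrays in replicate 1, while replicate 2 was among the 3 lowest for 9 of 9. Over all genes above the low values in that pair, 21.2% were more than 1 log2 unit higher in replicate 1 and 11.3% more than 1 lower. Replicate 2 had high Cpa1, at 9.67, and the erythroid marker mean was 7.64 in replicate 1 and 12.93 in replicate 2. Leaving out either array leaves 1 in the group, so only the changes are given. Without replicate 1 of this group, the LPS changes in null mice were 2.95 for Errfi1, 1.27 for Zbtb16 and 0.94 for Fkbp5. The ABA diet value of Zbtb16 without LPS was 2.45. Without replicate 2 instead, the array with high Cpa1, these LPS changes were 0.98 for Errfi1, -0.12 for Zbtb16 and 0.16 for Fkbp5. The ABA diet value of Zbtb16 without LPS was then -0.34. The null values without LPS therefore depended on which array of the pair was kept. The part of red cells or of pancreatic tissue in these arrays was not tested.

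**Figure D5:**
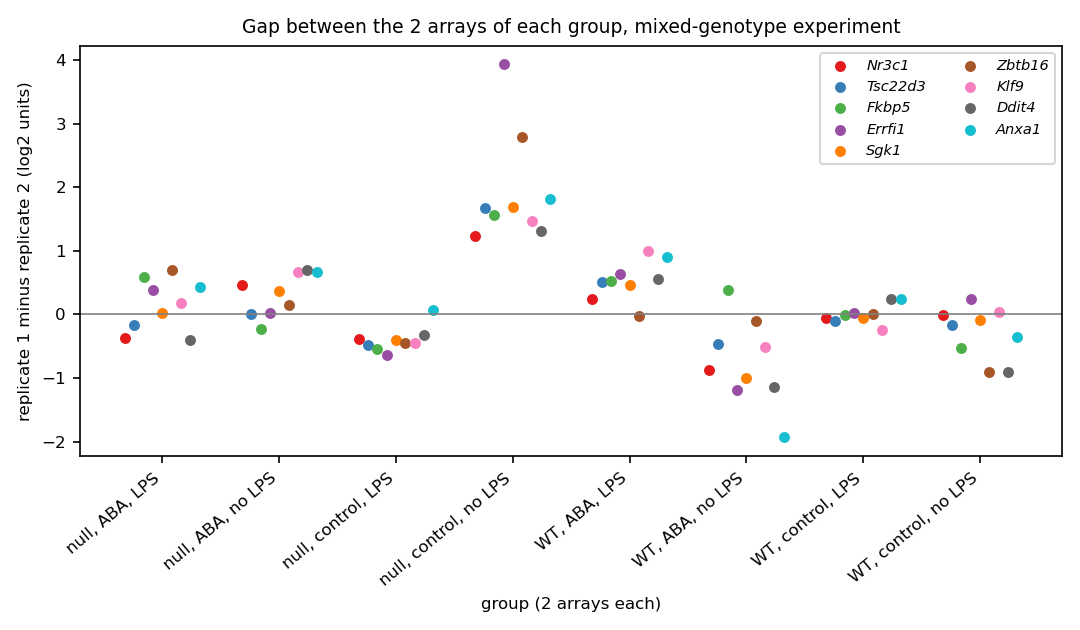
Replicate 1 minus replicate 2 in log2 units for each of the 9 genes (colours) in the 8 groups of the mixed-genotype experiment. The gaps of the null control diet group without LPS are all positive, between 1.24 and 3.93, while the other groups lie between -1.94 and 1.00.

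The lists that follow are set beside the shares of all genes that passed with LPS in wild-type mice, 8.93% higher and 6.33% lower on the ABA diet and 10.6% and 7.5% on the control diet. Of 11 tested chaperone and hormone-handling genes, 2 rose and 1 fell with the ABA diet, while the control diet gave 1 higher and 1 lower. Hsd11b1, which regenerates active glucocorticoid inside cells, fell, with changes of -1.13 on the ABA and -1.60 on the control diet, and St13, a co-chaperone, rose by 0.73 and 0.83. H6pd, which supplies the cofactor for Hsd11b1, rose by 1.49 on the ABA diet. Of 10 co-regulators, 2 rose and 0 fell with the ABA diet, Nrip1 at 0.79 and Smarca4 at 0.56, while the control diet gave 2 higher and 1 lower, Med1 at 1.47, Nrip1 at 0.72 and Ncoa1 at -0.80.

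Of 27 tested genes known to be induced by glucocorticoids and outside the 9, 13 rose and 1 fell with LPS on the ABA diet, and the control diet gave 12 higher and 1 lower. Il1r2, the interleukin-1 decoy receptor, rose by 5.48 on the ABA and by 4.19 on the control diet, and the metallothionein gene Mt1 by 3.56 and 3.52. Cd163, a macrophage receptor that takes up haemoglobin, fell, with changes of -6.01 and -6.15. In null mice 9 of 28 rose and 3 fell, beside 3.95% and 3.45% of all genes, with Il1r2 at 4.33 and Cd163 at -7.13. The median changes of this list were 0.33 in null mice, and in wild-type mice 0.86 with the ABA and 0.62 with the control diet, beside -0.01 over all genes in null mice and 0.00 in wild-type mice. The difference between experiments passed for Pdk4 at 3.10, Lpin1 at 1.53 and Rasd1 at -0.82, while the ABA diet in wild-type mice and the genotype comparisons gave 0 calls in these lists. Several of these genes also respond to LPS or cytokines directly. Among 7 tested annexin and formyl peptide receptor genes 5 rose on the ABA and 4 on the control diet, and 0 fell on either. Anxa4 rose by 2.21 and 2.69 and Anxa2 by 2.11 and 2.17, and Fpr2, a receptor for annexin A1, rose by 4.42 on the ABA diet. Of 12 paralogs of the members, 2 rose and 1 fell with the ABA diet, while the control diet gave 1 higher and 3 lower, with Tsc22d1 at -1.10 on both.

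The genes whose values ran most like those of each member over the 28 arrays, after each experiment's mean was taken off, are given as a description, since arrays share their group effects. Errfi1 was closest to Fosl2 (r = 0.96), Tsc22d3 to Zfp36l2 (r = 0.94), Zbtb16 to Fam107a (r = 0.94) and Fkbp5 to Ppp1r21 (r = 0.92). Pdk4, a mitochondrial kinase gene, was among the 3 closest genes of Fkbp5, Zbtb16 and Klf9. Among the members themselves, Fkbp5 and Zbtb16 had r = 0.90 and Ddit4 and Tsc22d3 had r = 0.89. Nr3c1 was closest to Fli1 (r = 0.89), Sgk1 to Tgfbr1 (r = 0.83), Klf9 to Ccn2 (r = 0.79) and Anxa1 to S100a6 (r = 0.85), followed by S100a9, a neutrophil gene of the marker list.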

How the data were processed

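Biotin-labelled spleen RNA was measured on a 1-colour array with 45101 probe sets. The deposited table holds the authors' log2 expression values. GCRMA and limma are named in the notes of the submitters on processing, without version or role. The log2 scale was read from the values and the lowest value shared by each experiment's arrays. Groups come from the labels for diet, genotype and challenge, and experiments from the titles. Platform annotation gave 34945 probe sets 1 gene, 932 several and 9224 none, and 34741 matched a RefSeq gene. Between 35.88% and 41.93% of an array's values were the lowest value, and the number of arrays limits the precision. No 2 arrays held identical values.

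A gene was tested if it exceeded its array's 40th percentile in at least as many arrays as its smallest condition has. The fits used lmFit and eBayes (limma 3.58.1, R 4.3.3), with p-values adjusted by Benjamini-Hochberg over all genes at 0.05. Wild-type contrasts took 20 arrays and a term for the experiment (13458 genes, residual df 15). The others took the 16 arrays of the mixed-genotype experiment (13377 genes, residual df 8). On simulated data for LPS on the control diet, 42% of genes changed by 1 log2 unit and 95% of those changed by 2 were called, with 5 of 13258 unchanged genes called. In the real comparison 2437 genes were called, many more than were changed in the simulation, so these shares need not hold there. Named genes are the 9 members, up to 3 rising and 3 falling genes of each list by adjusted p, and the 3 genes most like each member. Cpa1, Xist and the marker genes printed were chosen after their values were seen. The members and lists were chosen with earlier results of these data known. Promoters were searched with Python 3.11.15 and figures drawn with matplotlib 3.10.9. A ± after a change is the SE from limma. Alternatives were scaling, filters, probe sets, variance models, array weights, samples in the fit, a replicate block and arrays left out.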

Additional observations from a re-analysis of the deposited data

Results flagged for a closer look

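In the control diet group with LPS of the wild-type-only experiment, replicate 4 lay far below the other 3 arrays for Fkbp5, at 8.93, and for Sgk1, at 7.16, by Dixon's test, which marks about 1 in 20 groups of 4 by chance. The LPS change differed between the experiments, as the wild-type-only minus the mixed-genotype value, by 1.80 for Fkbp5, 1.62 for Errfi1 and 1.80 for Zbtb16. Their limma adjusted p values were 0.00419, 0.0174 and 0.00255.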

How the results depend on the processing

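The 10 called gene values were recomputed 228 times, of which 185 kept the call, 43 lost it and 0 turned direction. Of 2184 recomputed uncalled values 25 gained a call and 204 changed sign. These counts include fits that left 1 array in a group. Of the 9 members, 3 were called in wild-type mice for LPS with the control diet, beside 2437 of all genes. This became 5 with quantile normalisation (2491 of all genes), 8 with array weights (3529) and 1 without the arrays with high Cpa1 (1793). It became 0 within the mixed-genotype experiment (404 of all genes) and 2 to 3 without each array in turn (1824 to 2416). On the ABA diet the count was 6, beside 2054 of all genes. It became 5 with quantile normalisation (2083 of all genes), no filter (1700), array weights (1212) or a term for high Xist (1974). Without the arrays with high Cpa1 it was also 5 (1719). Each time the lost call was that of Klf9 (limma adjusted p = 0.0564 to 0.0637). The count was 0 within the mixed-genotype experiment (144) and 4 to 6 without each array (1371 to 2274). In the mixed-genotype wild-type mice, 1 (1879 of all genes) became 2 with median centring (2196) or with a 60th percentile filter (2140). It became 0 with no filter (1347), the mean of all probe sets (1877) or a term for high Xist (1873). On the control diet alone (916) and the ABA diet alone (439) it was 0 as well. It became 3 with array weights (2060). Leaving out any array there, or those with high Cpa1, leaves 1 array in a group, so no counts are given. The fit of all 28 arrays gave 6, beside 4005 of all genes, but its wild-type conditions pool the arrays of both experiments. Its Fkbp5 change of 2.11 therefore does not describe the mixed-genotype experiment alone. In null mice, 0 became 1 in 1 fit of all 28 arrays, beside 1910 of all genes against 990 in the main fit. For null mice too, each array left out leaves 1 in its group, so those counts are not given. With array weights the control diet falls of Nr3c1, at -0.37, and Sgk1, at -0.60, passed, as they did with quantile normalisation, at -0.47 and -0.60. The diet alone settings and the test between experiments were chosen after seeing the data. With median centring the median of all genes moved to 0.13 for LPS in null mice and, for the ABA diet in null mice, to -0.20 with LPS and 0.14 without it. For LPS in null mice 888 genes then rose and 394 fell, against 528 and 462 in the deposited scale. The causes of these shifts were not tested. Whether the replicate numbers pair the samples was not settled. Same-numbered arrays of different groups had a median correlation of deviations of 0.05 in the wild-type-only experiment, with a range of -0.15 to 0.39. In the mixed-genotype experiment the median was 0.02 and the range -0.71 to 0.51. In groups of 2 arrays the deviations are mirror images, so a median near 0 cannot exclude pairing. A replicate block gave 2 members for LPS on the control diet (1848 of all genes), 4 on the ABA diet (1679) and 1 in the mixed-genotype wild-type mice (1672).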
